A study of Mus musculus with 4 samples.

Results

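The deposited gene annotation for the sequenced RPP631 cells gave the biotype TEC to 3146 of 54232 genes. The letters mark loci still to be tested by experiment: annotators use the class for unspliced loci that rest on expressed sequence tags with a poly(A) tail. Those that averaged 0.5 CPM or more (CPM being the count scaled by the library total) over the 4 libraries were taken, which gave 223 genes. They were therefore chosen by their measured level, and 1 of them, Gm38300, was also named in the rule with its change already known. Each was set beside a neighbour, the protein-coding gene whose span holds it or, if none does, the nearest one.

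RPP631 is a single mouse small cell lung cancer (SCLC) line, and its genotype is not given in the sources used here. The cells were kept for 48 h in DMSO, the vehicle, or in YKL, an inhibitor of CDK7 by the title of the series, at 100 nM. Bulk RNA was sequenced from 2 libraries per group. Nothing in the labels says that the 2 libraries of a group came from separate cultures. A p-value here is therefore measured against the spread of these libraries, which may be technical.

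CDK7 belongs to TFIIH, one of the general factors that start transcription. It phosphorylates the tail of RNA polymerase II near promoters and activates the kinases of the cell cycle. Much unannotated or weakly annotated polyadenylated RNA arises near protein-coding genes: from promoters that fire in both directions, from antisense starts, from introns that are retained or end early at an internal poly(A) site, and from transcription past the end of a gene. These kinds of RNA differ in position and strand, so the TEC genes are described below by where they lie against their neighbour.

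The libraries held 34189709 and 31082753 counts under DMSO and 29817387 and 32956564 under YKL. The 223 TEC genes together took 431 and 533 CPM in DMSO replicates 1 and 2 and 586 and 443 CPM in YKL replicates 1 and 2, so the summed level of the groups overlapped. All 10 neuroendocrine markers of the line were above 5 CPM, while 0 of 4 leukocyte, 0 of 3 endothelial and 0 of 4 lung epithelial markers and 1 of 4 fibroblast markers passed that level. The fibroblast markers summed to 12.7 and 25.1 CPM under DMSO and 44.5 and 18.1 under YKL. Most of this was Pdgfra, with 11.5 and 23.1 CPM under DMSO and 43.1 and 17.6 under YKL. The part of these markers in the results was not tested. In bulk RNA, fewer cells that hold a transcript and less of it per cell cannot be told apart. The strand setting of the counting is not given in the sources used here, so reads of a TEC gene and of an overlapping gene on the other strand cannot be told apart. Nor do counts show whether a TEC gene on its neighbour's strand, inside or downstream of it, is a transcript of its own. Unspliced or read-through RNA of the neighbour would be counted there too.

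Gm38300 is the TEC gene with the largest fold change among the 222 tested, and stretches of its sequence are shown first because they display what such a gene is made of. It is an unspliced gene of 1870 bases on the plus strand of mm10, at chr1:178339601-178341470, outside any other gene. Its longest open reading frame runs over 55 codons. The first stretch is chr1:178339601-178339780, where capitals mark a run of 20 bases that lies in a stretch resembling the B2 family of short interspersed repeats. No repeat annotation was used. The second stretch is chr1:178341351-178341470, where capitals mark ATTAAA, a common variant of the AATAAA hexamer that directs cleavage and polyadenylation.
Gm38300, first 180 bases: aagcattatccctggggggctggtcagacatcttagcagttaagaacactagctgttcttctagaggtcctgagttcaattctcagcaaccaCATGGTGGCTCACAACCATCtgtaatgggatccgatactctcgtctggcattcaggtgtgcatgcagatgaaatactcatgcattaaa
Gm38300, last 120 bases: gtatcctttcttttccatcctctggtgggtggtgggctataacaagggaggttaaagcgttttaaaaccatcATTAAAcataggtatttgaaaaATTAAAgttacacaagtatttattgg

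The ends of another 3 TEC genes on which results below turn are printed for the same reason. C630004L07Rik (chr4:141238179-141238278, minus strand) has AATAAA near its end, in capitals. Gm48308 (chr10:88089725-88089824, plus strand) and Gm44168 (chr6:87989630-87989729, plus strand) have neither hexamer in their last 50 bases. All stretches were read from GENCODE M21 transcripts on the same coordinates as in the count table.
C630004L07Rik, last 100 bases: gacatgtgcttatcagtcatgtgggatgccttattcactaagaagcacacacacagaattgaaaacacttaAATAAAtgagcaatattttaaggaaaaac
Gm48308, last 100 bases: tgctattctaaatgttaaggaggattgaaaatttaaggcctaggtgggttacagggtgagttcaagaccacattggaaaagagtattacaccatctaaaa
Gm44168, last 100 bases: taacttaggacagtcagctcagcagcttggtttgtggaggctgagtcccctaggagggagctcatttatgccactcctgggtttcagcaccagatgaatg

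Most of the 223 TEC genes were unspliced and low. A single exon made up 222 of them, with a median exonic length of 2273 bases, and 151 shared no exonic base with any gene. Mean levels ran from 0.502 to 38.4 CPM with a median of 1.12; 17 reached 5 CPM and 100 stayed under 1 CPM. They held 80.9% of all counts given to TEC genes. Per kilobase of exon the median was 0.534 CPM, and the median TEC gene stood at 6.24% of the per-kilobase level of its neighbour. The values that decided membership were close at the edge: Gm10616 and Gm45592 entered at 0.502 and 0.505 CPM, and Gm37019 and Gm43460 stayed out at 0.498 and 0.495 CPM.

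By position, 97 of the TEC genes lay wholly inside their neighbour, 36 overlapped it in part and 90 lay outside it. Of those inside, 58 sat in introns on the host strand, 14 in introns on the other strand, 7 shared exonic bases on the host strand and 18 did so on the other strand. Of those outside, 33 lay downstream on the same strand, 32 were divergent (on the other strand, beyond the neighbour's start), 14 were convergent and 11 lay upstream on the same strand. The gap was at most 5 kb for 62 of the 90. They had 211 neighbours in all, since 23 TEC genes shared 11 of them; Kansl1l, a gene named for its likeness to a histone acetyltransferase subunit, held 3.

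Annotated ends differed between positions. AATAAA lay in the last 50 bases of 34.7% of the 222 TEC genes with a sequence, against 21.7% of all TEC genes and 56.3% of protein-coding genes. The hexamers were searched on the transcribed strand only. Among TEC genes in introns on the host strand, 22.4% of 58 held it and 72.4% held neither it nor ATTAAA. Among those in introns on the other strand, 71.4% of 14 held it and 7.14% held neither. Downstream TEC genes held it in 46.9% of 32 and divergent ones in 43.8% of 32. The median share of A in the last 20 bases was 35% for the TEC genes and for protein-coding genes alike. The run of 20 bases marked in Gm38300 occurred on either strand in 17 of the 222 sequences (7.66%, median length 2272.5 bases). Gm38300, from which the run was taken, is among them by construction. The run occurred in 3.12% of all TEC genes, 2.77% of TEC genes outside the set (median length 1916 bases) and 1.80% of protein-coding genes (2873 bases). These are letters found in a window and no test was made of them.

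**Figure D1:**
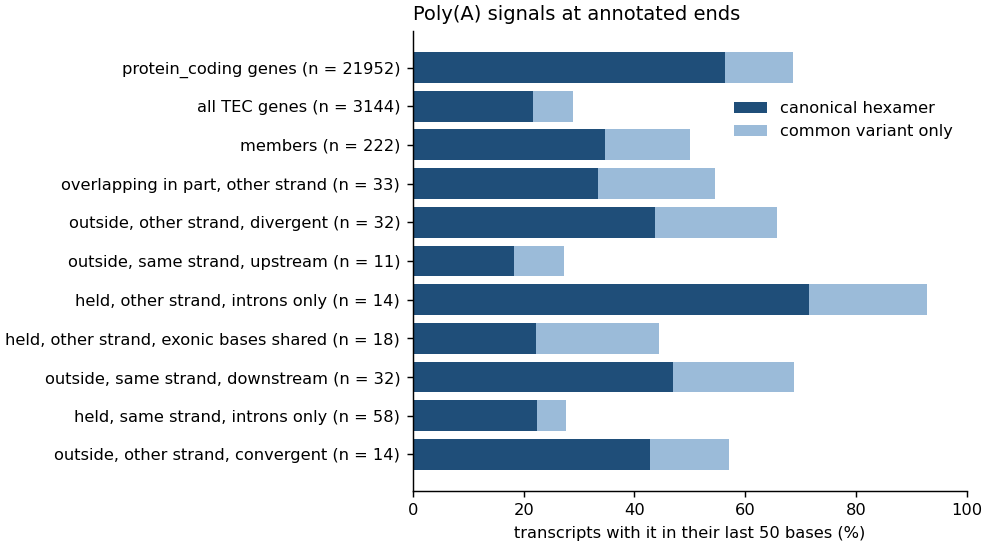
Share of transcripts, in percent, whose last 50 bases hold the canonical poly(A) hexamer AATAAA (dark) or only its variant ATTAAA (light). Rows are protein-coding genes, all TEC genes, the TEC genes of at least 0.5 CPM ("members") and their position classes with 10 or more sequences; the bar for introns on the other strand is the longest of the TEC classes and that for the host strand is close to all TEC genes.

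Gm38300 was nearly silent under DMSO and well expressed under YKL. Its counts were 26 in each DMSO library, 740 in YKL replicate 1 and 653 in YKL replicate 2. On the scale of CPM after TMM scaling (trimmed mean of M values, which corrects for composition) this was 0.801 ± 0.0338 (SD, n = 2) against 22.2 ± 2.74. Both YKL libraries lay far above both DMSO libraries, and the log2 fold change, YKL over DMSO, was 4.79 ± 0.35 (SE). Since the gene was named for this change, no p is given for it. In the authors' deposited table its log2 fold change was 3.97, rank 1 of the increases.

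Hnrnpu, the neighbour of Gm38300, did not share this pattern. It encodes a nuclear scaffold protein that binds RNA and chromatin, lies on the other strand and starts 1803 bases from the start of Gm38300 in the count table; the RefSeq gene model starts 709 bases away. Hnrnpu had 33031 and 23424 counts under DMSO and 19153 and 20776 under YKL. Its log2 fold change of -0.45 ± 0.20 did not pass edgeR's quasi-likelihood test with Benjamini-Hochberg adjustment (adjusted p = 0.242). Per kilobase of exon, the TMM-scaled level of Gm38300 was 0.574% of that of Hnrnpu under DMSO and 21.7% under YKL.

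The other genes tested around Gm38300 did not pass either. On the Hnrnpu side, the log2 fold change was -0.41 for Desi2, 0.22 for Cox20, a factor for assembly of cytochrome c oxidase, 0.83 for the antisense RNA B230369F24Rik and -0.10 for the pseudogene Gm37486. It was 0.37 for Efcab2, the next protein-coding gene on the far side, whose span begins 66.5 kb from the start of Gm38300. The adjusted p-values of these 5 genes, by edgeR, lay between 0.326 and 0.940.

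**Figure D2:**
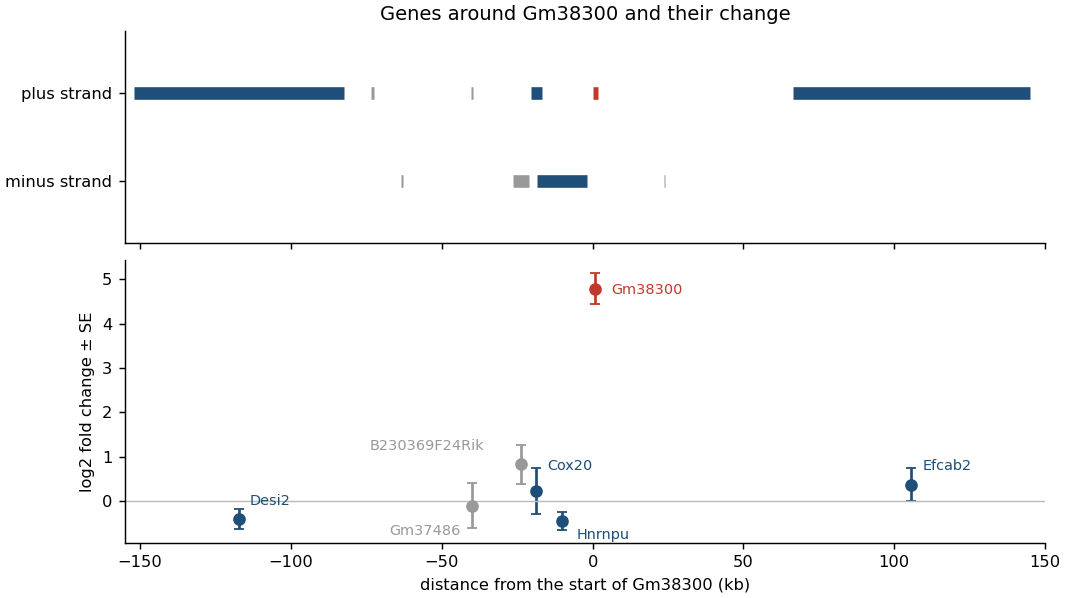
Genes within about 150 kb of Gm38300, by strand (top), and the log2 fold change of YKL over DMSO with its standard error for those tested (bottom), against distance in kb from the start of Gm38300. Red is Gm38300 at 4.79, blue is protein-coding and grey is any other biotype; all other points lie between -0.45 and 0.83.

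Across the TEC genes as a set, few changes passed the test. Of 222 tested, 2 were called higher under YKL (Gm38300 and 4933440N22Rik) and 1 lower (Gm48308). Without Gm38300, which was named for its change, 1 of 221 was called higher and 1 lower. Over all 16749 genes tested 3.54% were called, 2.1% higher and 1.44% lower, so the share of TEC genes called was not above that background. The median level was 22.6 CPM over all genes tested and 1.12 CPM over the TEC genes, and the shares were not compared at matched levels. The median log2 fold change was 0.02 over the TEC genes and -0.00 over all genes. An unadjusted p under 0.05 in edgeR was met by 25 TEC genes with a positive change (11.3%) and 6 with a negative one (2.70%), against 11.3% and 9.9% of all genes. Of the 25, 15 reached 0.5 CPM under YKL only; of the 173 TEC genes that reached it in both groups, 10 met it with a positive change and 3 with a negative one. The count of 3 depends on single libraries, as does the count over all genes. It was 14 (6.28%, against 7.61% of all genes) without DMSO replicate 1 and 12 (5.41%, against 2453 of 17491 genes) without DMSO replicate 2. It was 1 (0.448%) without either YKL library, against 0.606% of all genes without the first and 0.402% without the second. Gm37795 was not tested, with 4 and 58 counts under DMSO and 6 and 9 under YKL.

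Apart from Gm38300, each gene called by edgeR reached 0.5 CPM in 1 group only. Such genes had to differ between groups to be included, and nothing is read from their number. That held for 27 TEC genes under YKL and 23 under DMSO, while 173 reached the level in both groups. Among these 173, edgeR called 1, Gm38300, which was named for its change. In the authors' deposited table, adjusted p-values under 0.05 were given to 14.7% of 218 TEC genes with a positive change and 3.67% with a negative one, against 13.9% and 13.9% of 15908 genes.

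4933440N22Rik was low under DMSO and rose under YKL. It lies inside Hnrnpf, which encodes an RNA-binding splicing factor, on the other strand (chr6:117905808-117907760) and shares 410 exonic bases with it, all in untranslated parts. The counts were 19 and 12 under DMSO and 76 and 126 under YKL, which is 0.474 ± 0.132 TMM-scaled CPM (SD, n = 2) against 3.20 ± 1.01. The libraries of the groups did not overlap, and the log2 fold change was 2.74 ± 0.54 (adjusted p = 0.0318, edgeR). With either YKL library left out the call was lost: edgeR gave an adjusted p of 0.0751 without the first and 0.21 without the second.

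Hnrnpf itself had 2574 and 2273 counts under DMSO and 2589 and 2958 under YKL, a log2 fold change of 0.24 ± 0.18 (adjusted p = 0.48, edgeR). A different TEC gene inside Hnrnpf, also on the other strand, is Gm43863. It had 26 and 12 counts under DMSO and 53 and 62 under YKL, with a log2 fold change of 1.65 (adjusted p = 0.132, edgeR). Both TEC genes thus had higher counts in both YKL libraries than in either DMSO library, and only 4933440N22Rik passed the test. RefSeq lists 4933440N22Rik as protein-coding. A RefSeq start of Hnrnpf lies inside each of these TEC genes, but both are held by Hnrnpf in the count table. They are therefore not among the start-spanning TEC genes described below.

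Gm48308 fell under YKL. It lies on chromosome 10 (88088198 to 88089824, plus strand), 1247 bases upstream of Pmch, the gene of the melanin-concentrating hormone precursor. Its counts were 49 and 52 under DMSO and 10 and 6 under YKL, or 1.56 ± 0.131 TMM-scaled CPM (SD, n = 2) against 0.256 ± 0.0991. The DMSO libraries lay close together and above both YKL libraries, with a log2 fold change of -2.59 ± 0.60 (adjusted p = 0.0483, edgeR). Without YKL replicate 1 or 2 the adjusted p by edgeR was 0.184 or 0.327.

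Pmch had only 20 and 28 counts under DMSO and 12 and 3 under YKL, and its log2 fold change of -1.61 ± 0.75 was not called (adjusted p = 0.252, edgeR). Parpbp, a gene of homologous recombination on the same stretch of chromosome 10, was called lower at -1.23 (adjusted p = 0.033, edgeR). The TEC gene Gm6653 in an intron of Parpbp had 71 and 30 counts under DMSO and 36 and 30 under YKL, so its groups overlapped.

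The next TEC genes by p missed the threshold, and all 5 had positive changes. C630004L07Rik, whose span starts 45 bases from that of Arhgef19 and points away from it, had 7 and 10 counts under DMSO and 51 and 43 under YKL. The fitted level was 5.64-fold higher, with a standard error of 0.59 on the log2 scale (adjusted p = 0.0522, edgeR). Gm45546, divergent from Ssbp4 at 1552 bases, had 15 and 12 counts under DMSO and 76 and 48 under YKL. Gm47513, across the start of the zinc-finger gene Zfp367, had 13 and 8 counts under DMSO and 45 and 50 under YKL.

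Gm26616, across the start of Ppp1r15b, the gene of a phosphatase subunit that reverses the integrated stress response, had 7 and 7 counts under DMSO and 31 and 32 under YKL. Gm7461, 47307 bases from Zfp958, had 11 and 8 counts under DMSO and 27 and 59 under YKL. The log2 fold changes of Gm45546, Gm47513, Gm26616 and Gm7461 lay between 2.20 and 2.25, with adjusted p-values from 0.06 to 0.0889 by edgeR. All 5 genes were higher in either YKL library than in either DMSO library, and each reached 0.5 CPM under YKL only.

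**Figure D3:**
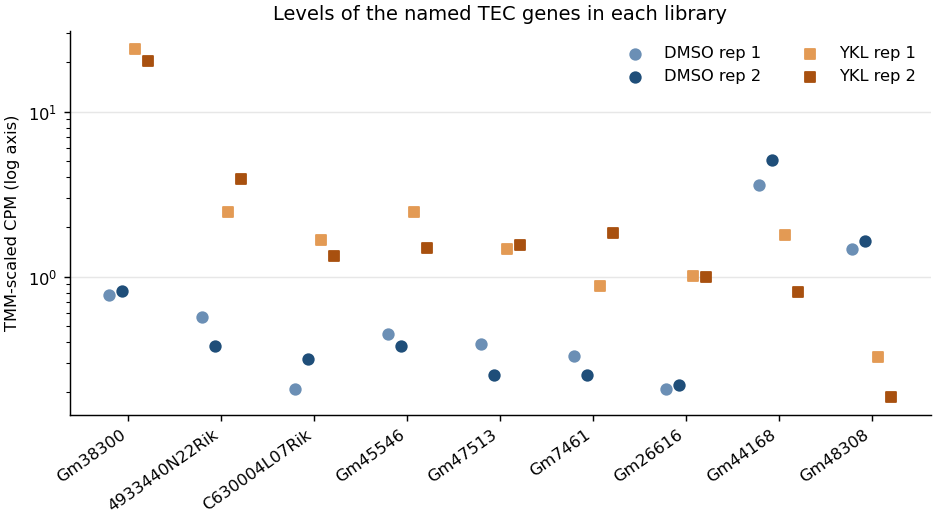
TMM-scaled CPM on a log axis for the TEC genes called or next by p and for Gm44168, in the 2 DMSO libraries (circles) and the 2 YKL libraries (squares). Gm38300 goes from 0.777 and 0.825 to 24.2 and 20.3; the 7 genes left of Gm44168 are higher in both YKL libraries, and Gm44168 and Gm48308 are lower in both.

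None of the 6 most abundant TEC genes was called by edgeR or by DESeq2, and 0 of the 6 had an unadjusted p under 0.05 in either. AC160637.1 (chr9:59672814-59676700) lies inside Pkm, the gene of pyruvate kinase, on the same strand, and shares 767 exonic bases with it. It had 626 and 2245 counts under DMSO and 1277 and 673 under YKL. Its DMSO libraries differed more from each other than the groups did: the log2 fold change was -0.52 ± 0.85 with all libraries and 0.70 without DMSO replicate 2. Pkm had 52017 and 83005 counts under DMSO and 72940 and 82631 under YKL.

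Gm37711 lies 1362 bases downstream of Oprd1, the delta opioid receptor gene, on the same strand, and is the one TEC gene of the set with 2 exons. It had 1187 and 1085 counts under DMSO and 893 and 812 under YKL, a log2 fold change of -0.36 ± 0.21 (adjusted p = 0.356, edgeR). Oprd1 had 3540 and 3418 counts under DMSO and 2507 and 2686 under YKL, a log2 fold change of -0.38 ± 0.17. Gm45884, 2902 bases downstream of Pura, the gene of a single-stranded DNA-binding protein, had 809 and 767 counts under DMSO and 699 and 540 under YKL. Pura had 1944 and 1579 under DMSO and 1230 and 1323 under YKL. Both TEC genes thus had lower counts in both YKL libraries, as did both neighbours, and the 4 adjusted p-values by edgeR lay between 0.249 and 0.544. Per kilobase, Gm37711 stood at 75.3% of Oprd1 and Gm45884 at 42.9% of Pura.

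Gm45133 overlaps Ccdc106 from the other strand, with 1290 exonic bases shared. It had 561 and 576 counts under DMSO and 516 and 710 under YKL and was more abundant per kilobase than Ccdc106 (343% of it). Gm49338, inside the beta-secretase gene Bace1 on the other strand, had 535 and 455 counts under DMSO and 618 and 429 under YKL. Gm4430 across the start of Slc20a1, a phosphate transporter gene, had 517 and 253 counts under DMSO and 515 and 483 under YKL. In all 3 the groups overlapped. Slc20a1 itself rose, from 4829 and 3088 counts to 8833 and 9920 (log2 fold change 1.30 ± 0.22, adjusted p = 0.0197, edgeR). A second TEC gene of the name Gm4430, 1637 bases upstream of Slc20a1, had 68 and 48 counts under DMSO and 71 and 57 under YKL.

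The change of each TEC gene was next compared with that of its own neighbour, as the difference of their log2 CPM in each library. Library scaling cancels in this difference, except in the prior count of 2 that is added before the logarithm. Of 215 pairs, 4 were called by limma, against 1.33% of the 2262 pairs of a gene of any non-coding biotype with its neighbour. The count rests on single libraries too, here as for all non-coding genes. It was 20 (9.26%, against 5.96% of all non-coding pairs) without DMSO replicate 1 and 15 (6.98%, against 8.62%) without DMSO replicate 2. It was 7 (3.24%, against 1.87%) without YKL replicate 1 and 3 (1.39%, against 1.49%) without YKL replicate 2. Both changes had the same sign in 132 of the 215 pairs. Across the pairs the log2 fold changes of TEC gene and neighbour had a Pearson correlation of 0.27 and a Spearman correlation of 0.28; these pairs share the same 4 libraries and some of them reads, and are not independent.

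In 3 of the 4 called pairs the TEC gene rose against its neighbour. These were Gm38300 against Hnrnpu, with a difference of 5.12 on the log2 scale, C630004L07Rik against Arhgef19, with 2.54 ± 0.48, and 4933440N22Rik against Hnrnpf, with 2.35 ± 0.44. Gm38300 was named for its change, and the latter 2 reached 0.5 CPM under YKL only and so had to be higher there. Nothing is read from the number of rising pairs. Among the 167 pairs whose TEC gene reached 0.5 CPM in both groups, 1 was called higher and 1 lower. The adjusted p by limma was 0.0406 for C630004L07Rik and for 4933440N22Rik. It was 0.092 for C630004L07Rik without YKL replicate 1 and 0.122 for 4933440N22Rik without YKL replicate 2. Arhgef19 had 4193 and 4413 counts under DMSO and 3252 and 3668 under YKL.

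In the remaining called pair the TEC gene and its neighbour had opposite signs. Gm44168 had 121 and 160 counts under DMSO and 55 and 26 under YKL, while H1fx, the gene of a linker histone variant 4553 bases away on the other strand, had 3035 and 1662 under DMSO and 4995 and 5718 under YKL. The difference was -3.07 ± 0.55 (adjusted p = 0.0406, limma). H1fx was called on its own (log2 fold change 1.25 ± 0.26, adjusted p = 0.0392, edgeR), and Gm44168 was not (-1.74 ± 0.52, adjusted p = 0.0976, edgeR). Against the nearest protein-coding gene on its own strand, the difference of Gm44168 was -1.99 and was not called (adjusted p = 0.0976, limma).

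Of the TEC genes, 14 had a neighbour that was itself called, and for 8 of the 14 that neighbour was higher. Some TEC genes share a neighbour. Among the 204 tested neighbours, each taken once, 7 were called higher and 5 lower, against 2.1% and 1.44% of all genes tested. Of the 14 TEC genes 0 were called on their own by edgeR, 3 had an unadjusted p under 0.05, and DESeq2 called 1, Gm44168. In 12 of the 14 the TEC gene's change had the sign of its neighbour's, against 132 of all 215 pairs. Eif4ebp1, a repressor of cap-dependent translation, was called lower at -2.15 (adjusted p = 0.00326, edgeR). The TEC gene 2766 bases downstream of it, 5430430B14Rik, had 38 and 19 counts under DMSO and 17 and 4 under YKL. Nkx2-1, a lineage transcription factor of lung and neuroendocrine cells, was called lower at -1.14 (adjusted p = 0.0189, edgeR). Gm47720, 31129 bases downstream of it, had 47 and 85 counts under DMSO and 20 and 11 under YKL (log2 fold change -2.04 ± 0.60, adjusted p = 0.0944, edgeR).

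On the higher side, Hhex, a homeobox gene, was called at 1.60 (adjusted p = 0.0197, edgeR). Gm38345, which starts 153 bases from it on the other strand, had 47 and 23 counts under DMSO and 83 and 89 under YKL (log2 fold change 1.35 ± 0.51, adjusted p = 0.17, edgeR). The exceptions in sign were Gm44168 beside H1fx and Gm47233 beside Fam81a, with 50 and 46 counts under DMSO and 41 and 11 under YKL against a neighbour called at 1.52 (adjusted p = 0.0101, edgeR). The genes in this paragraph and the one before it, apart from Gm44168 and H1fx, were chosen after their values were seen.

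Of the 36 TEC genes that overlapped their neighbour in part, 18 had both YKL libraries above both DMSO libraries and 2 had both below. On the other strand from the neighbour lay 33 of them. Among these 33, 17 (51.5%) had both YKL libraries above both DMSO libraries and 0 had both below, against 27.0% above and 25.3% below over all genes tested. EdgeR and DESeq2 called 0 of the 33. An unadjusted p under 0.05 was met by 7 in edgeR, all with positive changes, and by 4 in DESeq2. TEC genes that reached 0.5 CPM under YKL only had to be higher there. Of the 23 that reached it in both groups, 1 had an unadjusted p under 0.05 in edgeR, with 9 above and 0 below. The median log2 fold change of the 33 was 0.50, and that of their neighbours 0.01. The median was 0.35 without YKL replicate 1, 0.39 without DMSO replicate 2, 0.52 without DMSO replicate 1 and 0.61 without YKL replicate 2.

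In the annotation of the count table, 28 of the 33 spanned the start of their neighbour. These 28 had a median log2 fold change of 0.67, with 17 (60.7%) above in both YKL libraries and 0 below; of the 5 that did not, 0 were above or below in both. Of the 28, 8 reached 0.5 CPM under YKL only and so had to be higher there. Among the 19 that reached 0.5 CPM in both groups, the median was 0.44, with 9 (47.4%) above and 0 below. The start of the neighbour's RefSeq model lay inside 23 of the 28, with a median of 0.60, 14 above and 0 below; of the 15 of these that reached 0.5 CPM in both groups, 7 were above and 0 below. For the other 5, Gm26616 among them, it did not. The split by strand and by start was made after the values were seen. In the separate antisense biotype, 222 tested genes spanned their neighbour's start, with a median of 0.49, 48.6% above and 11.7% below. No minimum level in both groups was asked of them, so their shares do not compare with those of the 19.

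Examples of the start-spanning class show the size of the counts, and were chosen after their values were seen. A730089K16Rik, across the start of C530008M17Rik in the count table but not in RefSeq, had 39 and 27 counts under DMSO and 77 and 94 under YKL. 9330162G02Rik, across the start of the ubiquitin ligase gene Ube3a, had 57 and 69 counts under DMSO and 89 and 136 under YKL. Particl, which runs antisense from the start of the methionine adenosyltransferase gene Mat2a, had 131 and 119 counts under DMSO and 141 and 152 under YKL. In these 3 the YKL libraries were both above the DMSO libraries, by log2 fold changes of 1.42, 0.87 and 0.28, and none was called (adjusted p from 0.131 to 0.742, edgeR). At the other end, Gm44280 across the start of Rpusd3 had 12 and 29 counts under DMSO and 13 and 14 under YKL.

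Divergent TEC genes had a median log2 fold change of 0.27 over 32, and 0.20 over the 31 other than Gm38300. Of the 32, 14 (43.8%) were above in both YKL libraries and 6 (18.8%) below. Within 5 kb of the neighbour the median was 0.50, with 13 of 26 above and 4 below, but 7 of those 13 reached 0.5 CPM under YKL only and so had to be higher there. Among the 16 within 5 kb that reached it in both groups, Gm38300 included, the median was 0.20, with 6 (37.5%) above and 4 (25%) below. The class median lay between 0.16 (without YKL replicate 1) and 0.68 (without DMSO replicate 2). The median change of the divergent neighbours was 0.40, and the changes of TEC gene and neighbour had a Pearson correlation of -0.01 over 29 pairs, or 0.19 over 28 pairs without Gm38300.

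**Figure D4:**
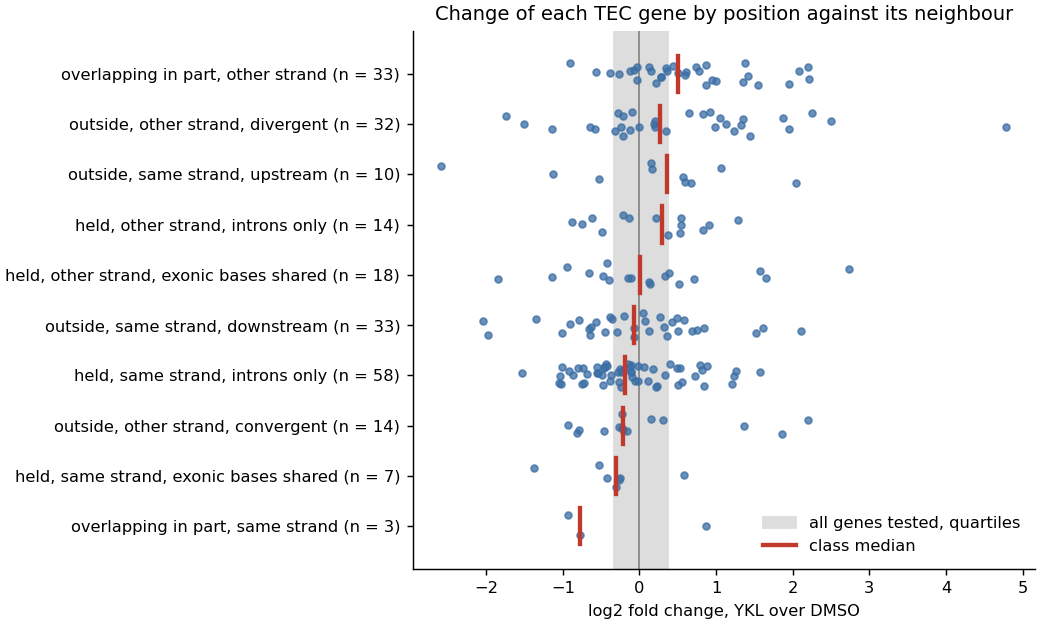
Log2 fold change, YKL over DMSO, of each TEC gene tested (points, spread vertically for legibility), by position against its protein-coding neighbour, with class medians in red. The grey band holds the middle quartiles of all 16749 genes tested; the class overlapping in part on the other strand has a median of 0.50 (0.35 over the 23 that reached 0.5 CPM in both groups) and introns on the host strand one of -0.19.

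The 58 TEC genes in introns on the host strand had a median log2 fold change of -0.19, with 12 (20.7%) above in both YKL libraries and 14 (24.1%) below, shares near those of all genes. The median was 0.13 without DMSO replicate 2 and -0.48 without YKL replicate 1, so its sign rests on single libraries. Their summed level was 73.0 and 86.8 CPM under DMSO and 89.4 and 63.6 under YKL, with DMSO replicate 2 and YKL replicate 1 as the high libraries of each group. The median log2 ratio of replicate 2 to replicate 1 was 0.31 under DMSO and -0.47 under YKL in this class, against 0.00 and 0.00 over all genes. The 14 in introns on the other strand had a median of 0.29, which was -0.04 without DMSO replicate 1.

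For TEC genes downstream of their neighbour on the same strand, the Pearson correlation between the changes of both was 0.59 over 32 pairs, with a Spearman correlation of 0.51. The Pearson value lay between 0.57 and 0.62 with each library left out. Within 5 kb it was 0.72 over 23 pairs. It was 0.27 for introns on the host strand (57 pairs) and 0.06 for overlaps in part on the other strand (33 pairs). Among TEC genes that reached 0.5 CPM in both groups, the Pearson and Spearman correlations were 0.67 and 0.46 downstream (28 pairs), 0.34 and 0.36 in introns on the host strand (49 pairs), and 0.42 and 0.61 for overlaps in part on the other strand (23 pairs). The order of the classes thus differs between both measures. These are descriptions across genes that share 4 libraries, and no test of the difference between classes was made. The median downstream change was -0.07, its sign changing with single libraries from -0.26 to 0.12.

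Pairs downstream give examples at both ends, chosen after their values were seen. Gm37277, 2714 bases past Rgs20, a regulator of G-protein signalling, had 27 and 21 counts under DMSO and 79 and 63 under YKL, a log2 fold change of 1.62 beside 1.07 for Rgs20. Gm44250, 365 bases past the paraoxonase gene Pon3, had 98 and 41 counts under DMSO and 310 and 66 under YKL, with 1.52 beside 1.55. 5430430B14Rik and Gm47720, given above, were at -1.36 and -2.04 beside -2.15 and -1.14. A730013G03Rik, 9273 bases past Sertad4, went the other way from this likeness, with 9 and 6 counts under DMSO, 35 and 28 under YKL and a change of 2.11 beside 0.14. EdgeR's adjusted p for these 5 TEC genes lay between 0.0936 and 0.347. Per kilobase, downstream TEC genes within 5 kb stood at a median of 23.5% of their neighbour's level, against 4.90% for introns on the host strand.

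**Figure D5:**
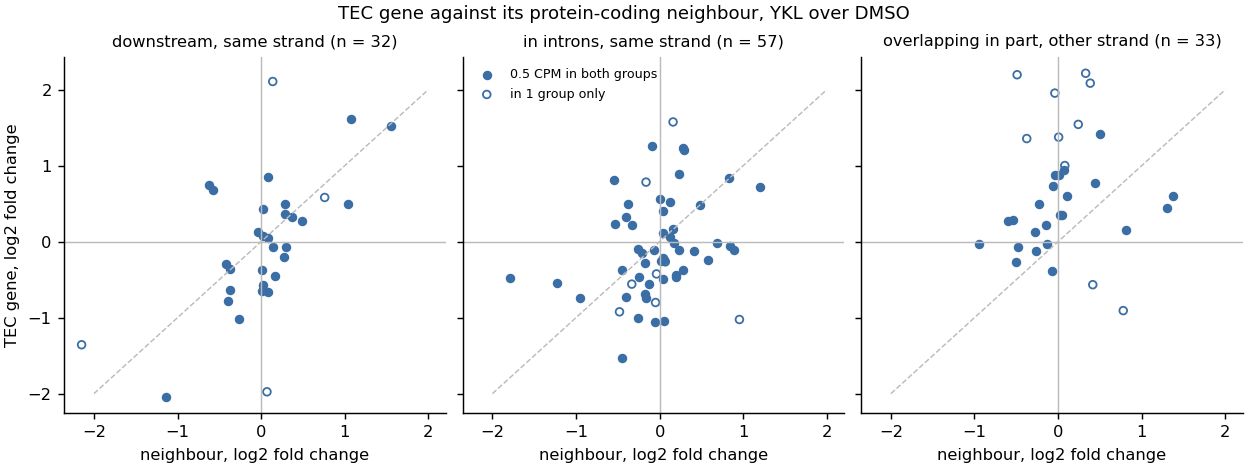
Log2 fold change of the TEC gene (vertical) against that of its protein-coding neighbour (horizontal), YKL over DMSO, for 3 position classes; the dashed line marks equal change. Filled points reached 0.5 CPM in both groups and open points in 1 group only, which fixes the sign of their change; over the filled points the Pearson correlation is 0.67 downstream (28 pairs), 0.34 in introns (49) and 0.42 for overlaps in part on the other strand (23), of which 17 lie above 0.

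The other biotypes of non-coding genes give a frame for these values. Among 513 tested antisense genes 12 were called higher and 2 lower by edgeR, with a median log2 fold change of 0.26, and 39.2% had both YKL libraries above both DMSO libraries. Among 572 long intergenic genes 9 were called higher and 0 lower (71 and 36 at an unadjusted p under 0.05), with a median of 0.13; DESeq2 called 14 higher and 12 lower. Among 36 sense-intronic genes the median was -0.22. Among the 204 tested neighbours of the TEC genes, each taken once, 7 were called higher and 5 lower, with a median of 0.02. For comparison, 2.1% of all genes tested were called higher and 1.44% lower. Over the TEC genes, 72 (32.4%) had both YKL libraries above and 42 (18.9%) below; 24 of the 72 reached 0.5 CPM under YKL only and 10 of the 42 under DMSO only. Among the 173 that reached it in both groups the shares were 27.7% and 18.5%.

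Replicates of the TEC genes were often far apart. Between the DMSO libraries, 50 of the 223 (22.4%) differed over 2-fold, against 13.8% of all genes tested, and between the YKL libraries 39 (17.5%) did, against 8.07%. Among genes of 0.5 to 2 CPM the shares under DMSO and YKL were 26.2% and 20.8% for the 168 TEC genes, and 32.0% and 22.5% for all 2493 genes tested. The 17 TEC genes of at least 5 CPM include 1 called gene, Gm38300, which was named for its change and reached that level through its YKL libraries only. For a TEC gene near 0.5 CPM a library holds about 17 counts, as for Gm45592 (17 and 17 under DMSO, 20 and 10 under YKL), where a change has to be several-fold to stand out from the spread.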

How the data were processed

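Bulk RNA of RPP631 cells was sequenced in 2 DMSO and 2 YKL libraries. STAR 2.5.2b with build mm10 and featureCounts are named in the submitters' processing notes, and the authors deposited raw counts per gene. The authors' deposited DESeq2 table gives per gene a mean signal scaled by size factors, the log2 fold change and an adjusted p-value; it was used for comparison only, without 28 entries of ambiguous name. Strand settings are not given in the sources used here.

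CPM is the count divided by the library total. Counts were tested with edgeR 4.0.16 (filterByExpr with minimum count 10 and minimum total 15, TMM, quasi-likelihood, robust prior), with calls at an adjusted p under 0.05 (Benjamini-Hochberg) over all 16749 genes tested. Pairs were tested with limma 3.58.1 (trend, robust) on log2 CPM with a prior count of 2, TEC gene minus neighbour, adjusted over 2262 pairs. The fits were also run on simulated counts, drawn independently for each gene with edgeR's trended dispersion. Pairs that share reads were not simulated, and no result here rests on that run. Each standard error of an edgeR change is the absolute log2 fold change over the square root of F. That of a pair difference is the difference over its t statistic in limma. The common biological coefficient of variation was 25.0%. Replicate libraries differed beyond counting noise (chi-square per degree of freedom 86.6 for DMSO and 37.1 for YKL).

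Positions and exons came from the count table, sequences from GENCODE M21 (222 of 223 matched on the same coordinates), and 23 of 223 symbols were found in the RefSeq gene table. No genome sequence was used, so bases past transcript ends were not searched and the share of A was taken in the last 20 transcribed bases instead. Genes named by rule were Gm38300, the called TEC genes and the next by p up to 8, the 6 most abundant, the called pairs, their neighbours and those at the 0.5 CPM edge. The TEC genes, lists and tests were chosen with earlier results of these data known. Alternatives were scaling by RLE, upper quartile or total count, a filter of 5 CPM or none, a replicate block, a prior that is not robust, DESeq2 1.42.0, prior counts of 0.5 and 5, another choice of neighbour and each library left out. Chosen after seeing the data were the sets without shared exonic bases or reaching 0.5 CPM in both groups, and the strand and start split of partial overlaps.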

Additional observations from a re-analysis of the deposited data

How the results depend on the processing

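The count of TEC genes called (3 by edgeR) was 13 with no filter (5.83%, against 5.79% of all genes), 8 with a replicate block (8 of 222, against 8.28%), 7 with DESeq2 (3.15% against 9.48%), 1 with total count scaling (0.450% against 1.01%), 1 with no robust prior (0.450% against 1.41%), 1 with a filter of 5 CPM (5% against 4.82%) and 1 among those reaching 0.5 CPM in both groups; leaving out 1 library gave 1 to 14. The median log2 fold change was 0.24 under the filter of 5 CPM, with 20 genes left. The count of pairs called (4 by limma) was 12 with a replicate block (5.58%, against 6.72% of all non-coding pairs), 8 with a prior count of 5 (3.72% against 2.96%), 2 with the filter of 5 CPM (2 of 20, against 6.50%) and 1 with the neighbour on the same strand (0.490% against 0.422%); leaving out 1 library gave 3 to 20. The labels give both groups replicates 1 and 2. Over genes, the difference of replicate 1 and 2 had a correlation of 0.152 between groups. That value does not settle whether the numbers pair the libraries, and the main fits do not pair them. Signs turned only for genes and pairs that were not called. Leaving out 1 library, the change lay between -0.060 and 0.33 for Gm45133, -0.65 and 0.12 for Gm10616, -0.74 and 0.31 for Gm45592, -0.19 and 0.40 for Gm49338, and -1.19 and 0.70 for AC160637.1, highest without DMSO replicate 2. The pair difference lay between -0.11 and 0.13 for Gm37711 (-0.03 without DMSO replicate 2), -0.14 and 0.34 for Gm45884 (-0.01 without DMSO replicate 1), and -0.35 and 0.21 for Gm49338. With the neighbour on the same strand it was 1.34 for Gm4430, 0.43 for Gm10616 and 0.021 for Gm49338. The cause was not tested. At the depth of these libraries a TEC gene near 0.5 CPM rests on about 17 counts a library.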
